A study of Mus musculus with 8 samples.

Results

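The regions described are the alternative intron events of a splicing table made from mouse epidermis with and without the splicing factor Esrp1. An event was taken where its identifier carried the type code AI (alternative intron), a choice that uses the kind of event and not its values. There were 153 such events among 501 events of the table, and they lay in 106 of its 236 genes. Each event pairs 1 intron entry, which stands for transcripts that keep the stretch, with at least 1 spliced junction that competes with it. The 153 events held 343 entries, 153 of introns and 190 of spliced partners, and 16 partner entries had no value.

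Introns are removed by the spliceosome, which reads short signals at both ends, most often GT at the 5′ end and AG at the 3′ end. A transcript that keeps an intron can be held in the nucleus, can be destroyed by nonsense-mediated decay when the intron brings a stop codon into frame, or can code for a different protein. Esrp1 and Esrp2 are RNA-binding proteins of epithelial cells that steer the choice of exons in genes of adhesion, polarity and growth factor signalling. MAJIQ reports PSI, the fraction of a local choice that a given intron or junction takes, and an expected change of PSI with the posterior probability that the change is at least 0.15.

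Both groups were epidermis from the back skin of pups at postnatal day 5, with 4 libraries each. All pups carried Esrp1flox/flox and Esrp2-/-, so that the controls also lacked a working Esrp2 gene, and the dams of both groups were fed doxycycline chow from embryonic day 17. The experimental pups also carried K5rTA tetOCre, in which a Krt5-promoter activator turns on Cre with doxycycline, so that deletion is limited to cells with that activity and their descendants. The labels number the libraries as biological replicates and do not give litters.

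To show what is retained, 3 introns with their own spliced junction, and with ends covered by GENCODE transcripts, are printed first. The letters are 5′ to 3′ on the strand of the gene, from GENCODE M21 transcripts on build GRCm38. Capitals mark the first and last 2 bases and, where there is one, the first stop codon in the reading frame of the gene. The first pair is from Krt12, a keratin best known from the cornea (intron chr11:99418647-99419543, minus strand, within the coding sequence). The second pair is from Plekhg3, which activates small GTPases at the actin cytoskeleton (intron chr12:76572746-76573246, plus strand, within the coding sequence). The third is from Zc3h11a, a zinc finger protein of RNA export (intron chr1:133654033-133661236, minus strand, in the 5′UTR).
Krt12 intron start: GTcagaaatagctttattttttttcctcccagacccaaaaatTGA
Krt12 intron end: gtgtctttctctctccattgctgtctctAG
Plekhg3 intron start: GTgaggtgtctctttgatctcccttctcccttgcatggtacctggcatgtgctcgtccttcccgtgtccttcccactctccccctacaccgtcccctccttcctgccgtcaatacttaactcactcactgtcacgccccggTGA
Plekhg3 intron end: cagtcgtaagctgacttctgcttgctgcAG
Zc3h11a intron start: GTaactagacccattttttgattcccgggt
Zc3h11a intron end: tcatggattgagtgttggttcgacctacAG

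All 3 begin with GT and end with AG. In Krt12 the frame met TGA at base 43 of its 897-base intron, and in Plekhg3 at base 142 of its 501-base intron. The Krt12 intron had a PSI of 0.589 in control and 0.217 in experimental epidermis, and it overlaps exon sequence of the opposite-strand gene A830036E02Rik. The Plekhg3 intron had 0.149 and 0.358, without passing the posterior threshold. A longer junction competed with the Plekhg3 intron too, at 0.83 and 0.442, while its own junction had 0.022 and 0.202. The frame could be read in 3 further introns. The stop lay at base 99 of 685 in Fgfr3, a receptor for fibroblast growth factors, at base 30 of 373 in another entry of Plekhg3, and at base 13 of 30887 in Gm20517. The Gm20517 stretch runs over exons of Med20 and Usp49 on the same strand, so that reads of these genes can fall in it.

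The libraries were not alike within the groups. The share of mitochondrial transcripts in the TPM table was 14.56% and 15.3% in experimental libraries 4 and 2 and 8.91% to 10.5% in the other 6. Krt5, a keratin of basal cells, stood at 3102 and 2617 TPM in control libraries 1 and 2 and at 1020 and 315.8 TPM in control libraries 3 and 4, against 606.2 to 1047 TPM in the experimental libraries. Keratinocyte markers were detected in every library (summed level 17914 to 42217 TPM in control and 37450 to 54915 TPM in experimental epidermis). Endothelial markers, 4 of 4, were listed at 0 throughout, and 0 members of the 8 marker lists passed limma between groups (1 keratinocyte marker at an unadjusted p under 0.05). Erythroid markers summed to 106 to 5847 TPM in control and 139 to 2597 TPM in experimental libraries. Langerhans cell and macrophage markers summed to 146 to 593 and 209 to 412 TPM, and melanocyte markers to 32.4 to 143 and 28.1 to 75.6 TPM. Esrp1, the deleted gene, was at 135, 131, 133 and 162 TPM in control and at 65, 49.8, 75.6 and 66.5 TPM in experimental libraries. Esrp2, removed in all pups, was listed at 0 to 3.31 TPM in control and 3.25 to 5.28 TPM in experimental libraries.

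Retention of the introns was more often higher than lower in the experimental epidermis. Of the 153 introns, 108 had a higher expected PSI there and 45 a lower one. Among the higher introns the median PSI was 0.2135 in control and 0.607 in experimental libraries, and among the lower ones it was 0.526 and 0.133. In 64 of the 108 the PSI went from under 0.5 to over 0.5, so that the intron entry became the main choice in experimental epidermis. Where the partner is not the intron's own junction, this PSI is not a measure of retention alone. The reverse crossing was found in 19 of the 45. MAJIQ combined the libraries of a group, and so none of these values has a spread between replicates.

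A change was counted as called where the posterior probability was at least 0.95. This held for 119 of the 153 introns (77.8%), 82 of them higher and 37 lower. Among all 721 distinct entries of the deposited table, 79.6% were called, 37% higher and 42.6% lower. The table appears to hold mostly splicing modules picked for a change, since 265 of its 269 modules had a called entry, and the total share called therefore says nothing particular about introns. By direction, 53.6% of the introns were called higher and 24.2% called lower. The 721 entries hold these introns and also competing junctions, which tend to move the other way. Their shares by direction are therefore no baseline for introns. A further 22 intron entries belonged to events of other types, alternative 5′ and 3′ splice sites, and 12 of the 21 with a value were higher and 9 lower.

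**Figure D1:**
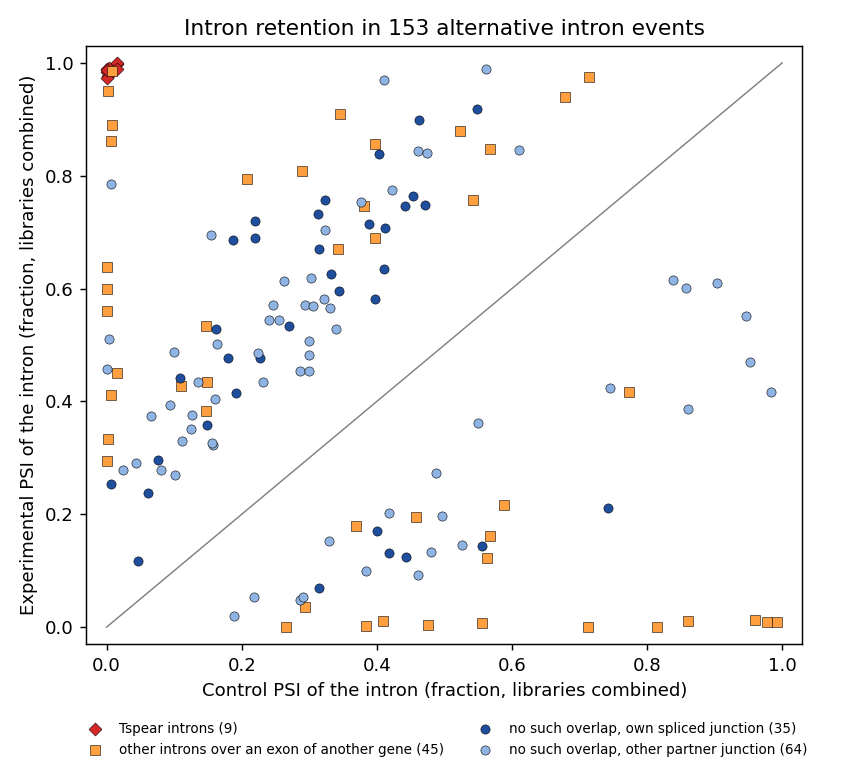
Each point is 1 of the 153 introns, with the control PSI on the horizontal axis, the experimental PSI on the vertical axis (fractions, 4 libraries combined in each) and a line of equal PSI. Diamonds are the 9 Tspear introns, squares the 45 others that overlap an exon of another gene, and circles the 99 without such an overlap; the points in the corners near 0 and 1 are mostly diamonds and squares.

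The introns had a median length of 2783 bases and ranged from 7 to 33842 bases. Those with higher retention had a median of 2981 bases and those with lower retention 2539 bases. The share with higher retention was 73% of 37 introns under 1000 bases, 68.8% of 64 introns from 1000 to 5000 bases and 71.2% of 52 longer introns. Across the 153 introns the Pearson correlation of log10 length with the change was -0.201, a description over introns that share libraries and genes, and the 7 Tspear introns of 204 bases or less lie at its short, high end. Among 233606 coding introns of GENCODE M21 the median length was 1455 bases.

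**Figure D2:**
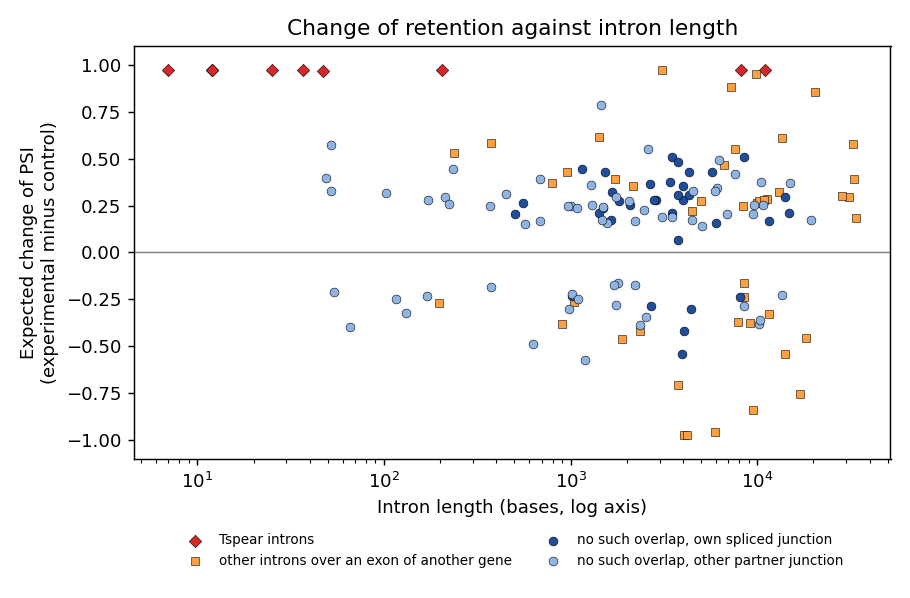
Intron length in bases (log axis) against the expected change of PSI, experimental minus control, with 1 point for each of the 153 introns and the classes of the PSI plot. Both directions occur between 54 and 18292 bases, and the values near 0.97 at lengths of 7 to 204 bases are Tspear introns.

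What competed with the intron differed between events. In 46 events a partner was the intron's own junction, which sets retention against removal, and these are called simple events here. Some of them, as in Plekhg3 and Esrp1, also held a further junction, so that their PSI is not a measure of retention alone. In 71 events the partner was a longer junction that shared 1 end with the intron, in 16 a shorter junction from a shared end, in 18 a junction spanning the whole entry, and in 2 another arrangement. GENCODE M21 annotates 57 of the stretches as introns of the host gene, 43 of them within the coding sequence, 3 in the 5′UTR, 3 in the 3′UTR and 8 in transcripts without a coding sequence. MAJIQ marked 145 of the intron entries as de novo, that is, retention that the annotation it used does not hold. Of the 46 simple events, 36 were coding introns, and 9 of these 36 had a length divisible by 3. The modules of 98 introns also held events of another type, most often alternative last exons (40 introns), alternative first exons (33) and skipped stretches of several exons (32).

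A total of 35 simple events, in 19 genes, lay clear of every exon of other genes. They are the plainest cases of retention, although some also held a further competing junction. Their median length was 3487 bases, 29 were higher and 6 lower, and 27 were called (21 higher, 6 lower). No change among them was beyond 0.542. The 6 lower introns belonged to 2 neighbouring genes, Nfatc3 and Dus2, and each of the other 17 genes had higher introns only.

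Several genes had a run of introns that shifted in 1 direction. Of 22 genes with at least 2 introns, 17 had all of them in 1 direction. Cyfip2, a subunit of the WAVE complex that drives branched actin, had 7 called introns with PSI of 0.219 to 0.678 in control and 0.544 to 0.939 in experimental epidermis. Its intron chr11:46286145-46289631 went from 0.219 to 0.719. Wee1, the kinase that holds back entry into mitosis, had 5 called introns, all simple events, with PSI of 0.162 to 0.462 in control and 0.529 to 0.898 in experimental epidermis. The Wee1 intron with the largest change, chr7:110130976-110134754, went from 0.219 to 0.689.

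The gene levels did not set the groups apart in these 2 genes. Cyfip2 was at 6.9, 5.7, 4.85 and 4.91 TPM in control and 5.21, 3.8, 4.58 and 4.35 TPM in experimental libraries, with overlapping groups (limma adjusted p = 0.466). Wee1 was at 4.8, 3.18, 2.24 and 1.38 TPM in control and 2.72, 1.4, 2.33 and 3.39 TPM in experimental libraries, again overlapping (limma adjusted p = 0.84). Both are low levels, and the number of reads behind a PSI was not used here. In bulk epidermis, fewer cells of a type and less RNA per cell cannot be told apart.

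Cd44, Fmn1 and Taf4b also had several introns with higher retention. Cd44, the hyaluronan receptor whose variable exons are a known Esrp target, had 4 introns at 0.076 to 0.191 in control and 0.297 to 0.477 in experimental epidermis, 2 of them called. Its level was 24.9 to 43.1 TPM in control and 26 to 40.3 TPM in experimental libraries. Fmn1, a formin that nucleates actin filaments, had 3 introns at 0.08 to 0.246 and 0.278 to 0.571, 2 of them called. Taf4b, a subunit of the general transcription factor TFIID, had 3 introns at 0.004 to 0.061 and 0.238 to 0.51, 1 of them called, and its level of at most 1.65 TPM in any library was under the expression filter.

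Nfatc3 and Dus2 went the other way. Nfatc3, a calcium-dependent transcription factor, had 7 called introns with PSI of 0.315 to 0.742 in control and 0.07 to 0.211 in experimental epidermis. Intron chr8:106104152-106108124, a simple event, went from 0.742 to 0.211. Dus2, which makes dihydrouridine in transfer RNA, lies beside it on the same strand and had 3 called introns at 0.401 to 0.443 in control and 0.125 to 0.171 in experimental epidermis. Nfatc3 was at 6.84, 4.83, 5.58 and 4.46 TPM in control and 5.29, 4.2, 6.77 and 8.38 TPM in experimental libraries. The Nfatc3 groups overlap, as do those of Dus2 (3.28 to 4.88 and 4.24 to 6.12 TPM), and neither gene passed the test (limma adjusted p = 0.776 and 0.446).

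**Figure D3:**
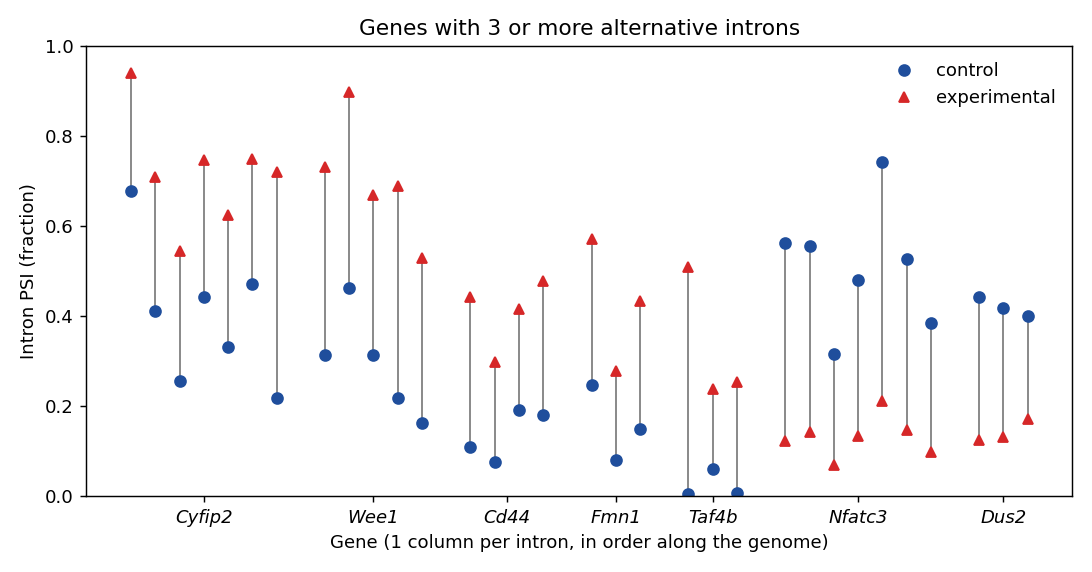
Intron PSI (fraction) of the 7 genes other than Tspear with at least 3 alternative introns, 1 column for each intron in genome order. Circles are control, triangles experimental, each with 4 libraries combined; triangles lie above circles in Cyfip2, Wee1, Cd44, Fmn1 and Taf4b and below them in Nfatc3 and Dus2.

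Among single introns with their own junction, the largest change clear of other genes was in Zfp711, a zinc finger gene on the X chromosome, from 0.187 to 0.686 (chrX:112615436-112623951, 8516 bases). Sned1, a matrix protein, went from 0.323 to 0.757, and Sfi1, a centriole protein, from 0.403 to 0.839. Pcbd1, which recycles a cofactor of aromatic amino acid hydroxylases, went from 0.548 to 0.919. These genes were scarce. Sned1 was at 1.27 to 2.5 TPM in control and listed at 0 in all 4 experimental libraries, and Pcbd1 was listed at 0 in 6 of 8 libraries. Atad5, a regulator of the replication clamp, had an intron at 0.389 and 0.715 although the gene was listed at 0, that is at or under 1 TPM, in every library.

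Better expressed genes with a simple event were Grhl1 and Numa1. Grhl1, a grainyhead-like transcription factor of the epidermal barrier, kept a 2081-base intron (chr12:24609742-24611822) at 0.344 in control and 0.596 in experimental epidermis. Numa1, which anchors the mitotic spindle, kept a 1499-base intron at 0.227 and 0.477. Both groups of Numa1 libraries were apart, 23.7 to 29.1 TPM in control and 9.78 to 18.7 TPM in experimental libraries, but limma did not pass it (adjusted p = 0.102).

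Where the partner was a longer junction, the intron entry is 1 side of an exon or splice site choice, and its PSI is not a measure of retention alone. Macf1, a giant linker of actin and microtubules, had a 2589-base entry at 0.155 in control and 0.695 in experimental epidermis. Epn2, an endocytic adaptor, had 0.561 and 0.99, and Mcfd2, a cargo receptor of the secretory path, had 0.411 and 0.97 for an entry of 52 bases. Epb41, a protein of the membrane skeleton, had 0.224 and 0.485. Fgfr2, in which Esrp controls a known pair of exclusive exons, had an entry at 0.984 and 0.417 and another at 0.158 and 0.323, and Fgfr1 had one at 0.86 and 0.387. Esrp1 itself had a 213-base entry at 0.136 and 0.434, and an intron of 3748 bases at 0.047 and 0.118 that was not called. The own junction of the 3748-base intron went from 0.953 to 0.147, and an unannotated longer junction from 0 to 0.669. Esrp1 is the gene that Cre deletes in these pups, and whether the longer junction comes from the deleted gene was not tested.

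Some other members, picked by their known role, act at the cytoskeleton and in adhesion. Ablim1, an actin-binding LIM protein, had an entry at 0.323 in control and 0.703 in experimental epidermis at a level of 83.8 to 107 and 90 to 122 TPM. Abi2, a partner of Cyfip2 in the WAVE complex, had 2 entries, at 0.263 and 0.614 (called) and at 0.294 and 0.57 (not called). Sh3d19, an adaptor of endocytosis, had 2 called entries, at 0 and 0.458 and at 0.043 and 0.29. Epcam, the epithelial adhesion molecule, had a 224-base entry at 0.024 and 0.279, and Anxa1, a membrane-binding annexin, a 172-base entry at 0.094 and 0.394. In the other direction, Epb41l5, a polarity protein of the FERM family, had 0.461 and 0.093. Myo6, the myosin that walks to the minus end of actin, had 1 entry in each direction, at 0.611 and 0.846 (not called) and at 0.418 and 0.203 (called). None of these genes passed the test of level.

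Among signalling genes, Pik3r1, the regulatory subunit of phosphoinositide 3-kinase, had 2 entries, at 0.241 in control and 0.544 in experimental epidermis (called) and at 0.125 and 0.352 (not called). Plekha1, a phosphoinositide-binding adaptor, had a called entry at 0.126 and 0.376. Crabp2, which carries retinoic acid, had a 102-base entry at 0.065 and 0.374, and its libraries did not overlap in level (141 to 254 and 274 to 334 TPM), although limma did not pass it (adjusted p = 0.154). Lin9, a subunit of the complex that controls mitotic genes, had 0.303 and 0.619, and Tulp4, a tubby-like protein, 0.461 and 0.843. Tead1, a transcription factor of the Hippo pathway, had a lower entry at 0.838 and 0.616 that was not called.

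Members with roles in metabolism and protein folding were of both directions. Ugt1a7c and Ugt1a6b are alternative first-exon genes of 1 UDP-glucuronosyltransferase locus and share their last exons. Their entries had 0.208 in control and 0.795 in experimental epidermis, and 0.11 and 0.428, and both run over exons of Ugt1a6a on the same strand. Tmbim6, an inhibitor of cell death in the endoplasmic reticulum, had 0.422 and 0.774. Ppib, a peptidyl-prolyl isomerase of the same compartment, had a lower entry at 0.903 and 0.61, as did Pnp, a purine phosphorylase, at 0.286 and 0.048, and Dhrs1, a short-chain dehydrogenase, at 0.291 and 0.053.

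Stefins of the skin, inhibitors of cysteine proteases, had entries of very different length. Stfa2 had one of 52 bases at 0.164 in control and 0.502 in experimental epidermis, and Stfa3 one of 49 bases at 0.1 and 0.487. A second Stfa3 entry, of 2366 bases, was at 0.952 and 0.47 and was not called. Stfa2 was at 80.2 to 437 TPM in control and 498 to 1364 TPM in experimental libraries, without overlap. Stfa3 was at 2107 to 10571 TPM and 7208 to 16433 TPM, with overlap. Neither stefin passed limma (adjusted p = 0.0945 and 0.385). In all, 11 intron entries were shorter than 70 bases, a limit chosen after the lengths were seen, whereas 0.223% of GENCODE coding introns are that short. They were 6 in Tspear and 1 each in Stfa2, Stfa3, Mcfd2, Gapdhs and Rgl2. Stfa2 and Stfa3 have close paralogs in the same cluster, and reads could be shared among them.

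The largest changes were found where an intron ran over an exon of another gene. Such an overlap was present for 54 introns in 45 genes, on the same strand for 20 and on the opposite strand for 40. The median size of the change was 0.4625 with an overlap and 0.279 in the 99 introns without one. All 17 introns that changed by more than 0.8, in 9 genes, had an overlap, and so did 21 of the 22 that changed by more than 0.6. There were 18 introns with a control PSI under 0.05 and an experimental PSI over 0.5, and 16 of these overlapped an exon of another gene. The sources used here do not give whether the libraries kept the strand, so that reads from a gene and its antisense partner cannot be told apart.

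Ulk4, Polr2c and Ccnh are examples on opposite strands. In Ulk4, a kinase-like gene, the entry chr9:120955973-120960032 went from 0.993 to 0.009, and it overlaps exons of Ctnnb1, the gene of beta-catenin. Ulk4 was listed at 0 in all 8 libraries, while Ctnnb1 was at 89.8 to 136 TPM in control and 49.2 to 100 TPM in experimental libraries. In Polr2c, an RNA polymerase II subunit, the entry went from 0.008 to 0.985 over an exon of Dok4, an adaptor protein. In Ccnh, a cyclin of the kinase that activates other cyclin-dependent kinases, it went from 0.861 to 0.01 over an exon of Rasa1, a brake on Ras. Levels of Polr2c (14 to 18.9 and 12.4 to 13.7 TPM) and Ccnh (7.29 to 13.2 and 6.38 to 10.3 TPM) did not pass limma (adjusted p = 0.364 and 0.668), nor did those of Ctnnb1, Dok4 and Rasa1.

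Same-strand neighbours gave changes of the same size. Samd4b, a translational repressor, had an entry at 0.006 in control and 0.862 in experimental epidermis that runs over exons of Pak4, a kinase of the cytoskeleton. Tmem147os, a non-coding gene, had one at 0.814 and 0.001 over Sbsn, suprabasin, which was at 4468 to 6604 TPM in control and 6137 to 7587 TPM in experimental libraries. The Zc3h11a intron printed above went from 0.008 to 0.889, and it contains Zbed6, an intronless transcription factor gene that the expression table lists at 0 in all libraries. GENCODE also holds a second gene under the symbol Zc3h11a at this place, so that reads may be divided between them.

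Non-coding hosts made up part of the same group. 2310002F09Rik went from 0.002 to 0.951 over Klk9 and Klk10, kallikrein proteases of the epidermis on the opposite strand. Gm35853 went from 0.96 to 0.012 over Krt80, an epidermal keratin. The single change beyond 0.6 without an overlap was in Zdhhc6, a palmitoyl transferase, from 0.006 to 0.786. The ends of both its spliced partner junctions lay in exons of the neighbouring Acsl5, an acyl-CoA synthetase that was lower in experimental epidermis (121 to 162 TPM in control, 68.1 to 82.3 TPM in experimental libraries, limma adjusted p = 0.0257).

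The spliced partners in these events were often not junctions of the host. Of 178 distinct partner junctions, 122 are annotated introns of the host gene and 56 are not annotated. Of these 56, 28 had both ends in exons of other genes and in no exon of the host, 15 of them in Tspear, and 20 shared an end with an annotated intron of another gene. Outside Tspear the end letters of 8 unannotated junctions could be read, which was possible only where GENCODE transcripts cover the ends. Of these 8, 3 read GT at the start and AG at the end on the strand of the host. Another 4 read CT at the start and AC at the end there, which on the opposite strand is GT at the start and AG at the end. The first and last 20 bases removed by these 4 junctions are shown, on the strand of the host, with the terminal 2 bases in capitals, because these ends, read on the other strand, are GT and AG. They are Ulk4 (junction within chr9:120955973-120957109, exons of Ctnnb1), Cd52 (chr4:134089396-134091060, exons of Crybg2), Prdm11 (chr2:93030560-93031516, exons of 4631405J19Rik) and Glod4 (chr11:76213944-76214255, exons of Fam57a).
Ulk4 junction start: CTcctaggaggagaaaagca
Ulk4 junction end: tttcataaagatctacctAC
Cd52 junction start: CTgagacgttgctgtcaggg
Cd52 junction end: tcaagctggctgctacctAC
Prdm11 junction start: CTggagttacaggtgaactt
Prdm11 junction end: tgtccccttgtcacactcAC
Glod4 junction start: CTgcattcatatgcacaaac
Glod4 junction end: taatctgatgacttcattAC

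The Ulk4 partner junction had a PSI of 0.007 in control and 0.983 in experimental epidermis, that of Cd52 had 0.286 and 0.025, that of Prdm11 had 0.984 and 0.549, and that of Glod4 had 0.672 and 0.27. Cd52, a small surface glycoprotein of lymphocytes, was at 9.95 to 34.4 TPM in control and 13.7 to 29.5 TPM in experimental libraries. Of 13 annotated partner junctions with readable ends, 12 read GT and AG on the strand of the host.

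Tspear gave the most uniform pattern of all hosts. It codes for an extracellular protein with epilepsy-associated repeats, and keratin-associated protein (Krtap) genes, which code for matrix proteins of the hair shaft, lie inside its introns. Its 9 intron entries had PSI of 0 to 0.016 in control and 0.974 to 0.999 in experimental epidermis, with changes between 0.969 and 0.974, and all were called. Their lengths were 7, 12, 12, 25, 37, 47, 204, 8154 and 11015 bases. Tspear itself was at 1.55, 1.71, 0 and 0 TPM in control and listed at 0 in all 4 experimental libraries.

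The letters of 5 short entries are printed whole, on the plus strand, because their size and letters differ from those of ordinary introns. The 12-base letters occur at 2 places, in Gm3233 at chr10:77759175-77759186 and in Krtap10-4 at chr10:77826562-77826573. The others lie in Gm9639 (chr10:77794717-77794741), Krtap10-10 and Gm2696 (chr10:77836349-77836385) and Gm2696 (chr10:77815145-77815191).
Tspear entry of 12 bases: tgcagcacacag
Tspear entry of 25 bases: ctgctggcagcatggtccagagcag
Tspear entry of 37 bases: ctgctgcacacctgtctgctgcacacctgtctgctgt
Tspear entry of 47 bases: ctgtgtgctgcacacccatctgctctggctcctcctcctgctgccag

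None of these entries begins with GT. The competing junctions joined different Krtap genes. Of 16 distinct Tspear partner junctions, 15 had readable ends, and 2 of the 15 read GT and AG. The letters around the 2 ends of a junction matched each other for 1 to 38 bases, with a median of 5, against a median of 3 and at most 6 in the 13 annotated junctions. The longest match is shown in capitals at both ends of the junction between chr10:77759110 in Gm3233 and chr10:77794520 in Gm9639, because the position of a junction within matching letters cannot be placed exactly.
Upstream end: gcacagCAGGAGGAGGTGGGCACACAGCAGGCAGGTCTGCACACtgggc
Downstream end: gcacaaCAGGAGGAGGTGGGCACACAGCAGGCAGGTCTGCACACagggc

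The 8 genes inside the Tspear entries moved together from library to library. They were at 7.82 to 16.5 TPM in control library 1, 37.2 to 96 TPM in library 2, 105 to 259 TPM in library 3 and 182 to 384 TPM in library 4. In the experimental libraries they were at 35.6 to 133, 1.9 to 10.5, 9.21 to 30.4 and 15 to 59.3 TPM. The groups overlapped for each of the 8, and none passed limma (adjusted p of 0.286 to 0.478). Their sequences were not compared over their length; as members of 1 gene family they may share reads, and their levels are uncertain to that extent. Library 4 of the control, which held the highest levels, also had the lowest Krt5; the part of these levels in the Tspear PSI was not tested.

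**Figure D4:**
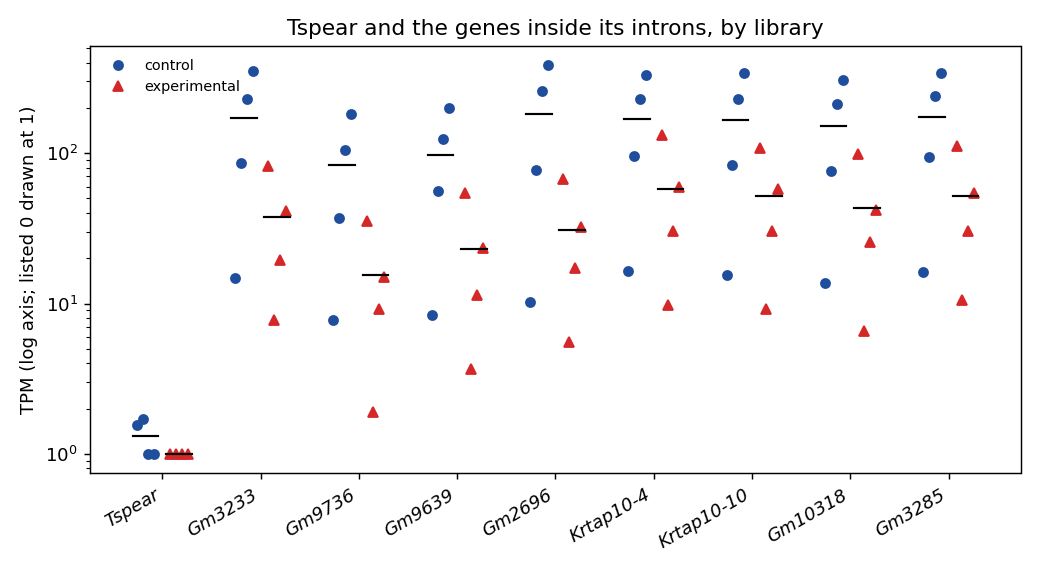
TPM (log axis, listed 0 drawn at 1) of Tspear and the 8 genes inside its intron entries, with 4 control libraries as circles and 4 experimental libraries as triangles in library order, and bars at the mean of the drawn values. Control libraries 3 and 4 are highest in each of the 8 genes, and control library 1 lies among the experimental libraries.

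Krt12 and the antisense gene A830036E02Rik gave opposite signs at 1 place. The 2 Krt12 introns went from 0.589 to 0.217 and from 0.458 to 0.196, and the A830036E02Rik intron chr11:99420130-99421864, which overlaps Krt12 exons, went from 0.147 to 0.534. Both Krt12 introns in turn overlap exon sequence of A830036E02Rik, so that reads of the 2 genes cannot be told apart there. Krt12 rose in level, from 7.97, 8.11, 1.76 and 1.49 TPM in control to 75.5, 72.5, 63.9 and 10.3 TPM in experimental libraries. The groups do not overlap, and the change was 3.21 on the log2(TPM + 1) scale (SE 0.66, limma adjusted p = 0.0338). It did not pass without control library 3 (adjusted p = 0.0971) or without experimental library 1, 2 or 3 (adjusted p of 0.0829 to 0.126), nor without a filter on low values (adjusted p = 0.0634).

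The level of the host genes is a measure that the choice of events did not use. Of the 106 hosts, 94 were in the expression table, 81 passed the filter of a mean of 1 TPM, and 13 did not, among them 7 listed at 0 in all libraries. The 12 hosts outside the table were mainly non-coding genes. By limma 8 of the 81 passed (9.88%), 2 higher and 6 lower, where 2.46% of all 10682 genes passed, 0.917% higher and 1.54% lower. The 6 lower hosts include Esrp1, the gene deleted by design. The median change was -0.21 for the hosts and -0.18 for all genes. The libraries of the groups did not overlap in 19 of the 81 hosts, against 12.6% of all genes. With every library centred on its median gene, which moves the median change of all genes from -0.18 to 0.03, 6 hosts were higher and 4 lower, and 283 of all genes were higher and 102 lower, where the uncentred counts were 98 and 165.

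The level of 6 hosts fell. Grhl1 was at 157, 152, 170 and 231 TPM in control and at 62.4, 41.7, 68.1 and 73.2 TPM in experimental libraries, a change of -1.53 (SE 0.22, limma adjusted p = 0.0077). Inf2, a formin, was at 19.2, 23, 22.7 and 27.5 TPM and at 8.83, 5.83, 9.01 and 9.9 TPM, a change of -1.37 (limma adjusted p = 0.0077). In both the groups lie well apart, and both had a called entry with a higher PSI, a simple event in Grhl1 and an entry against a longer junction in Inf2 (0.322 in control and 0.581 in experimental epidermis).

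Cyb561a3, a ferric reductase of lysosomes, was at 14.8, 12.1, 17.6 and 11.6 TPM in control and at 4.66, 4.47, 5.97 and 6.47 TPM in experimental libraries (change -1.23, limma adjusted p = 0.0116). Its 375-base entry (chr19:10588754-10589128) had a PSI of 0.345 and 0.909. Pde8b, which breaks down cyclic AMP, was at 3.12 to 4.03 TPM and at 0 to 1.59 TPM (change -0.98, limma adjusted p = 0.0116), with an intron at 0.306 and 0.569. Pde8b did not pass with centred libraries (adjusted p = 0.0618) or quantile normalization (adjusted p = 0.0758). Esrp1 changed by -1.13 (limma adjusted p = 0.0112). The called entries of Cyb561a3, Pde8b and Esrp1 compete with longer junctions and that of Cyb561a3 overlaps an exon of Tkfc, so that their PSI is not a measure of retention alone.

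Tmem159, an organizer of lipid droplets also known as promethin, was at 65.5 to 131 TPM in control and 21 to 42.2 TPM in experimental libraries (change -1.26, limma adjusted p = 0.0453), and its intron was lower, at 0.293 and 0.036. It did not pass when any 1 of 6 libraries was left out (adjusted p of 0.0686 to 0.122), nor with centred libraries (adjusted p = 0.108), quantile normalization (0.0574), no filter (0.0658) or a filter of 5 TPM (0.0504). Zfp385a, an RNA-binding zinc finger protein, rose from 37.8 to 52.5 TPM in control to 74.3 to 96.5 TPM in experimental libraries (change 0.90, limma adjusted p = 0.0269). Its intron was at 0.218 and 0.053 and was not called. The call was lost when any 1 of 6 libraries was left out (adjusted p of 0.0515 to 0.104).

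By direction of retention, 53 tested hosts had only higher introns, and 0 of them rose and 5, among them the deleted Esrp1, fell in level. At an unadjusted limma p under 0.05, 5 of the 53 were higher and 11 lower. The share of all genes at this unadjusted threshold is not given here. Of the 53, 39 had a change below 0, where 74.5% of all genes did. Of 23 tested hosts with only lower introns, 2 rose and 1 fell, and of 5 with both, 0 passed (0 at an unadjusted limma p under 0.05). The median changes were -0.21, -0.15 and -0.32. Without experimental libraries 2 and 4, which had the high mitochondrial shares, 0 of the hosts passed in either direction, and 15 of all genes did. Without control libraries 3 and 4, 17 hosts passed as lower, and 2354 of all genes.

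**Figure D5:**
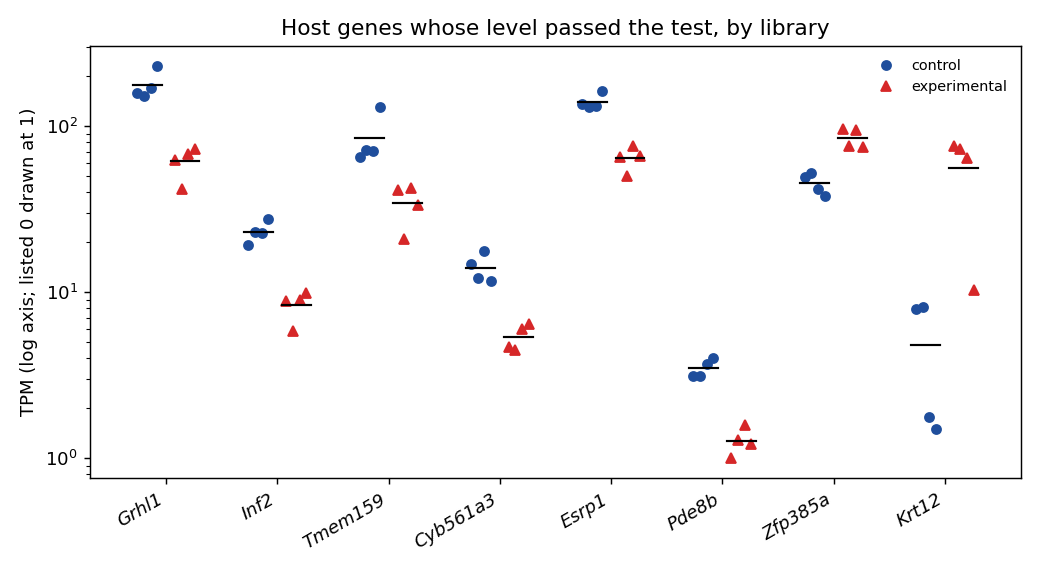
TPM (log axis, listed 0 drawn at 1) of the 8 host genes whose level passed limma, with 4 control libraries as circles, 4 experimental libraries as triangles and bars at the mean of the drawn values. Grhl1, Inf2, Tmem159, Cyb561a3, Esrp1 and Pde8b are lower and Zfp385a and Krt12 higher in the experimental libraries, without overlap.

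The authors' deposited table of differential expression has 748 genes, all with a log2 fold change below 0 and with no direction named in it, and lists 9 of the 106 hosts. In the authors' deposited table the values are -1.41 for Grhl1, -1.33 for Inf2, -1.21 for Cyb561a3, -1.34 for Pde8b, -0.976 for Esrp1 and -1.2 for Tmem159. The authors' deposited table also gives -1.76 for Tspear, -1.73 for Sned1 and -1.77 for Pdzk1, a scaffold of membrane transporters, 3 genes under the expression filter used here.

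Genes that remove introns or destroy unspliced transcripts did not pass the test. In the major spliceosome list 0 of 20 tested members passed, in the minor spliceosome 0 of 10, among SR proteins and their kinases 0 of 19, in nonsense-mediated decay 0 of 14 and in nuclear RNA surveillance 0 of 15. At an unadjusted limma p under 0.05 1 minor spliceosome, 1 SR protein and kinase and 1 nonsense-mediated decay member were lower, 0 members of the other 2 lists were, and 0 of the 5 lists had a higher member. The counts over all 5 lists stayed at 0 when 1 library was left out. Without control libraries 3 and 4, 19 members were lower, and so were 2354 of all 10713 genes. With all libraries the median changes of the 5 lists, -0.15, -0.13, -0.16, -0.17 and -0.15, lay near the -0.18 of all genes. Prpf8, the core of the spliceosome, was at 8.36 to 21.9 TPM in control and 7.41 to 12.9 TPM in experimental libraries, and Sf3a2, a U2 protein, at 8.44 to 21 and 10.8 to 11.5 TPM. Pdcd7 of the minor spliceosome was at 6.02 to 9.5 and 4.13 to 5.97 TPM, groups that do not overlap, and Zmat5 at 7.43 to 13.4 and 7.3 to 8.63 TPM. Clk3, a kinase of SR proteins, was at 31.6 to 95.9 and 20.8 to 37.9 TPM, and Srsf9 at 36.7 to 54.4 and 29.1 to 39.9 TPM. Upf2, an activator of nonsense-mediated decay, was at 17.8 to 22.7 and 11.9 to 16.4 TPM, and Smg9 at 3.84 to 6.21 and 3.49 to 3.83 TPM. In Upf2 and Smg9 too the groups do not overlap, which held for 12.6% of all genes. Exosc10 of the nuclear exosome was at 10 to 17.5 and 8.85 to 11.1 TPM, and Exosc3 at 17 to 30.6 and 15.6 to 21.3 TPM.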

How the data were processed

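RNA of 8 epidermis libraries was sequenced. Per the submitters' processing notes STAR, SAMtools 1.9, Salmon 0.14.0 and DESeq were used, with GRCm38/mm10. The deposited PSI values are fractions, and the deposited changes of PSI and posteriors are scores, with the libraries of a group combined by the authors. The authors deposited log2 TPM; values at or under 1 TPM are listed at 0. Log2 fold changes, mean normalized signal, Wald scores and p-values of the authors' deposited table were only copied.

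Introns and partners were placed on GENCODE M21 (GRCm38). Gene levels were tested with limma 3.58.1 (R 4.3.3) on log2(TPM + 1), TPM set to at least 1, over genes with a mean of at least 1 TPM, two-sided, Benjamini-Hochberg adjusted p under 0.05, and checked on simulated data. An exact permutation test of 4 against 4 cannot go below 0.0286. Library depth is unknown. P-values measure the spread between libraries. Libraries are numbered in table order, since the columns carry no replicate number of the labels. Members and lists were chosen with earlier results of these data known. Hosts were named for a called intron, a passing level or a large change, with every library given for those the results turn on. Some were named for a known role, a short entry, readable letters or an outlying library. Factors were named by lowest p, 2 per list. GC content was not computed because few intron letters were covered.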

Additional observations from a re-analysis of the deposited data

Results flagged for a closer look

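In 6 host genes 1 control library stood apart from the other 3 by more than Dixon's limit for a group of 4. These were Esrp1 with 162 TPM, Fmn1 with 12.95 TPM, Insig2 with 184.1 TPM, Pnp with 62.3 TPM, Tmem159 with 130.7 TPM and Tulp4 with 18.61 TPM. In each it was control library 4, the highest of its group and the library with the lowest Krt5. Chance alone marks about 1 in 20 groups, and 6 of 153 groups tested is not above that rate. That rate does not take into account that all 6 fell on the same library and the same side, which was not tested. Of these genes Esrp1 and Tmem159 passed the test of level; without control library 4 they changed by -1.05 and -1.04 on the log2 scale and still passed.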

How the results depend on the processing

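No paired analysis was possible because the columns of the expression table carry no replicate number of the labels. Changing the pseudocount, the filter or the variance trend kept the counts of all genes within 1.5 times, although without a filter 1 host, not 2, was higher and 5, not 6, were lower, and with a filter of 5 TPM 4 were lower. Median centring gave 283 higher and 102 lower genes with 6 higher hosts, and quantile normalization gave 269 higher genes with 5 higher hosts. With 1 library left out, all genes gave 36 to 158 higher and 47 to 420 lower, and hosts 0 to 2 higher and 5 to 7 lower. The following settings were chosen after seeing the data. Without experimental libraries 2 and 4 there were 14 higher genes and 1 lower, and 0 hosts higher and 0 lower. Without control libraries 3 and 4 there were 241 higher and 2354 lower genes, 17 lower hosts and 19 lower factors. Without control libraries 1 and 2 there were 204 higher and 340 lower genes, 5 higher hosts and 1 lower factor. Of the called introns, 2 higher and 2 lower were not marked de novo, and 49 higher and 20 lower overlapped no exon of another gene. Posterior thresholds of 0.9 and 0.99 and a minimum change of 0.2 or 0.3 kept both directions within 1.5 times of the main counts. Depth behind each PSI was not used, so weakly covered introns of scarce genes cannot be separated from well covered ones.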
